A study of Homo sapiens with 6 samples.

Results

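Liver cell identity is held by a small network of transcription factors, and 8 of its genes are described here: the nuclear receptor gene NR5A2, the forkhead genes FOXA1, FOXA2 and FOXA3, the leucine zipper gene CEBPA, the nuclear receptor genes NR1H4 and RXRA, and the homeobox gene PROX1. They were taken by gene name, and all 8 were present among the 14034 rows of the count table. The cells were JHH-4, an established line from a human hepatocellular carcinoma that the labels call epithelial-like. The 3 control libraries carry the genotype label WT, and the other 3 came from the same line made to overexpress hsa-miR-885-5p from a plasmid holding its primary transcript. The sources used here do not say what the control cells were given, so the plasmid and its delivery cannot be told apart from the microRNA. Libraries within a group are technical replicates by the submitters' own wording, and all p-values therefore describe the spread among such replicates alone. Total counts ran from 46382314 to 56409821 per library.

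FOXA proteins are pioneer factors that open chromatin at liver enhancers, where C/EBPα, the product of CEBPA, and nuclear receptors then bind. NR5A2 (LRH-1) binds DNA as a monomer and drives genes of bile acid and cholesterol handling, while NR1H4 (FXR) senses bile acids and binds many of its sites together with RXRA. PROX1, needed for liver development, acts in hepatocytes as a corepressor of NR5A2 and other receptors. A microRNA pairs through its seed with matching sites, mostly in 3′ untranslated regions (3′ UTRs), and lowers the messenger RNA or its translation.

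Of the 8 genes, NR5A2 held a full seed site of miR-885-5p, so its site is shown facing the microRNA. Both sequences are written 5′ to 3′, the microRNA from RefSeq on GRCh38.p14 and the site from the GENCODE 29 transcript. Capitals mark the seed, bases 2 to 8, in the microRNA and the matching 8mer in the UTR.
hsa-miR-885-5p: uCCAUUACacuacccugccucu
NR5A2 site: atataaaagacattGTAATGGA
The 22 bases of the NR5A2 site lie at chr1:200174455-200174476 on the plus strand (GRCh38), in the 3′ UTR. The 8mer fills bases 259 to 266 of a UTR of 3214 bases, and lies in 3 of the 4 annotated 3′ UTRs of coding NR5A2 transcripts. Beyond the 8mer, 6 of the 14 remaining bases could pair with the microRNA in a register without gaps.

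The sites searched, in transcript sense on 1 strand, were GTAATGGA (8mer), GTAATGG (7mer-m8), TAATGGA (7mer-A1) and TAATGG (6mer), each shorter one lying inside the first. In the longest annotated 3′ UTRs of the 12304 tested genes that have one, 2.54% held the 8mer and 8.01% a 7mer-m8 or 8mer. Among the 1746 UTRs of similar length to that of NR5A2 (2572 to 4015 bases), 3.84% held the 8mer. NR1H4 held a single 6mer, at bases 365 to 370 of its UTR. The UTRs of FOXA1, FOXA2, FOXA3, CEBPA, PROX1 and RXRA held none of the sites, and neither did any annotated transcript of these 6 genes over its whole length. For RXRA the coding transcript ends 3566 bases before the end of the gene, and a non-coding transcript through that stretch held none either. The seed site of the other arm, 7mer-m8 CGCTGCC of miR-885-3p, was in none of the 8 UTRs.

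With miR-885-5p, FOXA2 and NR5A2 were lower, each to about 0.4 of its control level (ratios 0.394 and 0.406), and CEBPA was higher by 1.67-fold. FOXA3 was lower by a small margin, and FOXA1, RXRA, NR1H4 and PROX1 did not pass the threshold (0.05 for p of edgeR's quasi-likelihood test after Benjamini-Hochberg adjustment across all genes). That is 3 genes lower and 1 higher of 8, where 26.5% of all genes tested were lower and 26.3% higher, or 52.9% together. Their median log2 fold change was -0.04, against -0.001 for all genes. The number that passed is therefore near the share of all genes, while falls as large as those of FOXA2 and NR5A2 were less common: 2.29% of all genes passed the threshold and were at least 2-fold lower. In RNA from bulk cells, fewer cells that make a transcript and less transcript per cell cannot be told apart.

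**Figure D1:**
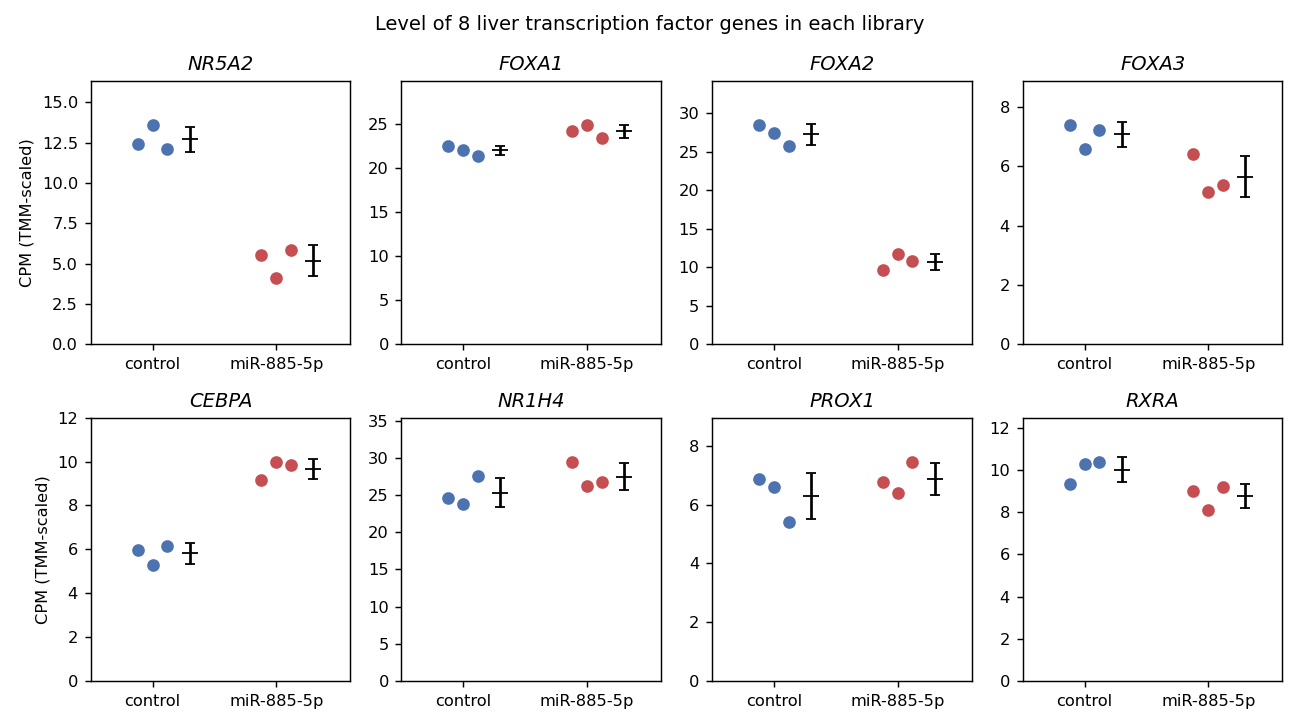
Each panel plots 1 gene, with CPM (counts scaled to library size by the TMM method, axis from 0) in each of the 3 control (blue) and 3 miR-885-5p (red) libraries; the black mark and bar give mean and SD. NR5A2 and FOXA2 lie well below control in all 3 miR-885-5p libraries, CEBPA lies above, and the groups of NR1H4 and PROX1 overlap.

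NR5A2 (ENSG00000116833) lies on chromosome 1 from 200027602 to 200177424 on the plus strand. Its level was 12.4, 13.6 and 12.1 CPM in control libraries 1 to 3 and 5.56, 4.08 and 5.87 CPM in miR-885-5p libraries 1 to 3. The groups did not overlap, and the lowest control library was more than 2-fold above the highest miR-885-5p library. These levels rest on 589 to 643 counts in control and 235 to 307 counts with miR-885-5p. The mean went from 12.7 ± 0.804 to 5.17 ± 0.957 CPM (SD, n = 3 per group), which gave a log2 fold change of -1.30 with an SE of 0.14 (edgeR adjusted p = 3.52e-05). Among the 14034 genes, 173 had a lower log2 fold change than NR5A2. Library 2 of miR-885-5p was the lowest, and without it the log2 fold change was -1.15, still past the threshold. On the deposited FPKM (fragments per kilobase of transcript, scaled to library size) the fall was 1.10 on the log2 scale with a pseudocount of 0.1. With a pseudocount of 1 it fell by 0.71, since NR5A2 stood near that pseudocount.

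Related genes that hold the 8mer did not all fall. Of 126 genes tested over the 8 genes and the 12 further lists used below, 4 held an 8mer: NR5A2, the coactivator gene NCOA2, the lipoprotein receptor gene VLDLR and the zinc finger repressor gene ZBTB20. NR5A2 was the 1 of these that passed the threshold. The log2 fold changes of NCOA2, VLDLR and ZBTB20 were 0.16 (SE 0.08), -0.03 (SE 0.11) and 0.00 (SE 0.09). A 7mer-m8 was found in CEBPD, which fell by 0.62, and in NR1D2, which rose by 0.50 on the log2 scale. Among all genes tested, 312 held an 8mer, of which 137 were lower and 61 higher. That is 43.9% lower, beside 26.5% of all genes, which include genes without an annotated 3′ UTR. The 2 shares were not matched for UTR length, and an effect of the site was not tested. The genes with an 8mer had a median log2 fold change of -0.13, and 4 of them had a lower log2 fold change than NR5A2.

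NR5A2 also differed in direction from the median of the genes around it. The 25 tested genes on each side along chromosome 1 had a median log2 fold change of 0.21, against -0.001 over all genes. Of these 50 neighbours 24 were higher and 12 lower, beside 26.3% higher and 26.5% lower among all genes. LAD1 at -1.41 was the 1 neighbour with a lower value than NR5A2 (LAD1 was named after its value was seen). Among all 14034 genes, 173 were below NR5A2. PROX1 lies further along the same arm, from 213983181 to 214041502 on the plus strand, and its 50 neighbours had a median of 0.24, with 30 higher and 5 lower. FOXA2 on chromosome 20 had neighbours with a median of 0.05. None of them was below FOXA2 (0 of 50), where 159 of all 14034 genes were. The neighbours of CEBPA on chromosome 19 had a median of -0.06, and 48 of 50 were below CEBPA, where 13188 of all 14034 genes were. The ranks of NR5A2, FOXA2 and CEBPA among their neighbours were thus near their ranks among all genes.

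**Figure D2:**
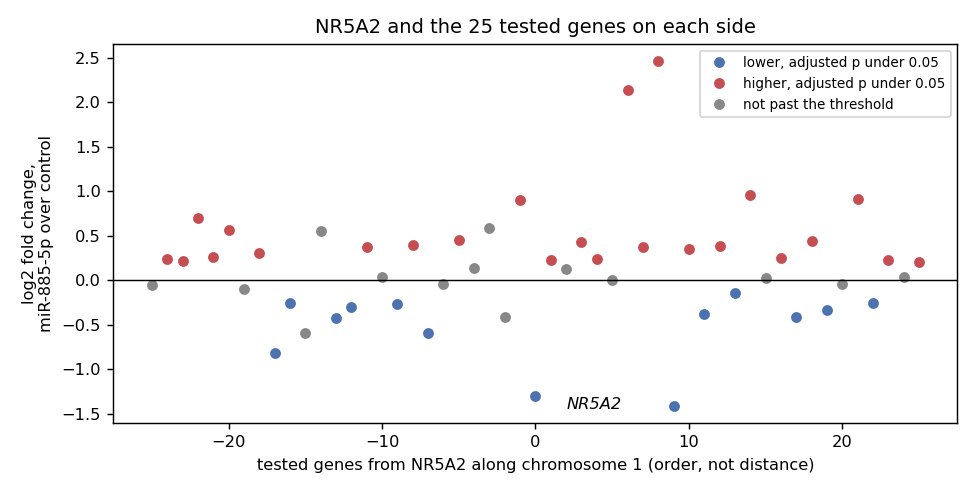
The log2 fold change (miR-885-5p over control) of NR5A2 and of the 25 tested genes on each side is plotted against gene order along chromosome 1, so the x axis is not a distance. Most neighbours lie at or above 0, and NR5A2 at -1.30 has 1 neighbour below it. Past the threshold 24 neighbours are higher and 12 lower, beside 26.3% and 26.5% of all genes.

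The FOXA genes did not change together. FOXA2 (ENSG00000125798, chromosome 20, 22581005 to 22585455, minus strand) was at 28.5, 27.5 and 25.8 CPM in control and 9.63, 11.7 and 10.8 CPM with miR-885-5p. All 3 control libraries were above all 3 miR-885-5p libraries, by more than 2-fold between the nearest of them. The mean went from 27.3 ± 1.34 to 10.7 ± 1.05 CPM, or -1.34 on the log2 scale (SE 0.08, edgeR adjusted p = 1.42e-06), and 159 genes had a lower log2 fold change. The fall of FOXA2 was close to that of NR5A2 (-1.30, SE 0.14), and their order turned when some single libraries were left out. No seed site lay in any annotated transcript of FOXA2. Its exons overlap those of AL121722.1, an annotated coding gene on the same strand. AL121722.1 had 1.52 to 1.58 CPM in control and 0.488 to 0.711 CPM with miR-885-5p, also a log2 fold change of -1.34 (SE 0.23), and no source used here says how the counting split shared reads.

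FOXA1 (ENSG00000129514, chromosome 14, 37589984 to 37596059, minus strand) was at 22.5, 22.1 and 21.4 CPM in control and 24.2, 24.9 and 23.4 CPM with miR-885-5p. These groups did not overlap but stood close together: the log2 fold change was 0.13 (SE 0.06, adjusted p = 0.0836), and it passed the threshold under total-count scaling alone (0.18, adjusted p = 0.0265). Exons of FOXA1 overlap those of TTC6, a coding gene on the opposite strand that was not among the genes tested. FOXA3 (ENSG00000170608, chromosome 19, 45863989 to 45873797, plus strand) was at 7.40, 6.60 and 7.23 CPM in control and 6.43, 5.14 and 5.37 CPM with miR-885-5p. Its highest miR-885-5p library was just below its lowest control library. The log2 fold change of FOXA3 was -0.33 (SE 0.12, adjusted p = 0.0485), at the edge of the threshold. Without control library 1 or 3, or miR-885-5p library 2 or 3, adjusted p was 0.138, 0.0928, 0.155 and 0.128. On the deposited FPKM the log2 fold change of FOXA3 was -0.14 with a pseudocount of 0.1 (limma, adjusted p = 0.430).

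Levels of different genes can be compared only per length, so the FOXA genes were set side by side in FPKM. In control, FOXA2 was above FOXA1 in each library, with ratios of 1.33, 1.34 and 1.34. With miR-885-5p FOXA2 was below FOXA1 in each library, with ratios of 0.436, 0.531 and 0.505, so the order of the pair turned. The exact permutation test on the log2 ratio gave p = 0.1 (two-sided), the smallest that 3 libraries against 3 can give. Both genes already lay apart by group in opposite directions, so this p could not have come out otherwise. FOXA2 made up 48.3 ± 0.643% of the summed FOXA level in control and 26.6 ± 2.48% with miR-885-5p, while the share of FOXA1 went from 36.2 ± 0.471% to 54.3 ± 2.10%. The summed FPKM of the FOXA genes was 21.0 ± 0.903 in control and 15.6 ± 0.348 with miR-885-5p. Every control sum was above every sum with miR-885-5p, 20.3 being the lowest and 15.8 the highest of each.

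**Figure D3:**
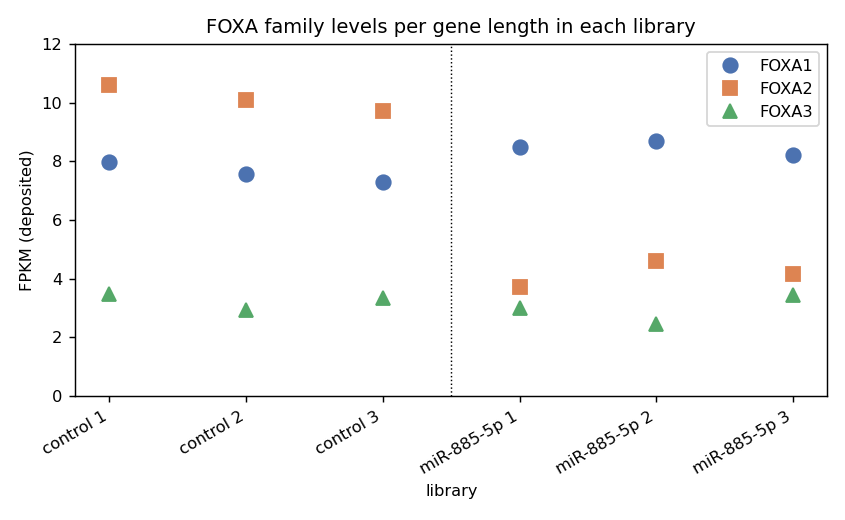
Deposited FPKM of FOXA1 (circles), FOXA2 (squares) and FOXA3 (triangles) is plotted for each library, with an axis from 0 and a dotted line between the 3 control and 3 miR-885-5p libraries. FOXA2 is above FOXA1 in every control library (9.72 to 10.6 against 7.28 to 7.97) and below it in every miR-885-5p library (3.70 to 4.61 against 8.22 to 8.69).

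CEBPA (ENSG00000245848), whose product turns on many metabolic genes of the mature hepatocyte and restrains its division, is a gene of 1 exon on chromosome 19 from 33299934 to 33302564, minus strand. It was at 5.99, 5.28 and 6.17 CPM in control and 9.16, 10.0 and 9.86 CPM with miR-885-5p. The lowest miR-885-5p library was well above the highest control library. Its mean went from 5.81 ± 0.471 to 9.69 ± 0.459 CPM, or 0.74 higher on the log2 scale (SE 0.10, edgeR adjusted p = 0.000218). Tested against a 1.5-fold change it did not pass (adjusted p = 0.271), while FOXA2 and NR5A2 did (adjusted p = 4.92e-05 and 0.00143), as did 6.43% of all genes. The antisense genes AC008738.3 and AC008738.5 overlap its exon, and reads from opposite strands cannot be separated where strand is not known.

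Other genes listed with the C/EBP family changed in both directions. Of 5 tested 3 rose and 1 fell, beside 26.3% higher and 26.5% lower among all genes. Of the leucine zipper factors that bind the same motif as C/EBPα, CEBPB, which is induced by cytokines and stress, rose by 0.33 on the log2 scale (SE 0.04), from 303 ± 7.88 to 380 ± 9.97 CPM, and its partner in the acute phase, CEBPD, fell by 0.62 (SE 0.06), from 32.3 ± 2.11 to 21.0 ± 0.577 CPM. CEBPG, another leucine zipper gene, had a log2 fold change of 0.07 (SE 0.05) and did not pass. The other 2 that rose are not activators at that motif: DDIT3, a stress-induced inhibitor of C/EBP proteins, rose by 0.41, and CEBPZ, which shares the name but is not a leucine zipper protein, by 0.15. In FPKM, CEBPA stood at 0.0142 ± 0.00135 of the level of CEBPB in control and 0.0189 ± 0.000666 with miR-885-5p. Against CEBPD its ratio was 0.155, 0.126 and 0.167 in control and 0.351, 0.406 and 0.387 with miR-885-5p. CEBPA thus stayed the minor of the 3 in every library, at a higher ratio to both.

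NR1H4 (ENSG00000012504, chromosome 12, 100473708 to 100564413, plus strand) was at 24.6, 23.8 and 27.6 CPM in control and 29.5, 26.2 and 26.7 CPM with miR-885-5p. The groups overlapped, with control library 3 above 2 of the miR-885-5p libraries. The log2 fold change was 0.12 (SE 0.07, adjusted p = 0.208), and between 0.07 and 0.19 over 18 alternative settings, none of which passed the threshold. RXRA (ENSG00000186350, chromosome 9, 134317098 to 134440585, plus strand) was at 9.33, 10.3 and 10.4 CPM in control and 8.99, 8.10 and 9.18 CPM with miR-885-5p. These groups were apart by less than their own range. The log2 fold change of RXRA was -0.20 (SE 0.09, adjusted p = 0.102), and it passed under none of the 18 settings. Its paralog RXRB, which can take its place as a partner of other receptors, rose by 0.26 (SE 0.06). In FPKM, RXRA stood at 0.337 ± 0.0262 of RXRB in control and 0.246 ± 0.0237 with miR-885-5p.

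PROX1 (ENSG00000117707) was at 6.89, 6.60 and 5.40 CPM in control and 6.77, 6.40 and 7.47 CPM with miR-885-5p. The groups overlapped, and the log2 fold change was 0.13 (SE 0.13, adjusted p = 0.422). Its exons overlap those of the antisense transcript PROX1-AS1, which was not analysed here. Set against this corepressor, NR5A2 had FPKM ratios of 2.75 to 4.11 in control and 1.12 to 1.66 with miR-885-5p, with no overlap between groups. NR5A2 by itself already lay apart by group while PROX1 did not, so this ratio mostly repeats the fall of NR5A2.

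In all, 6 of the 8 genes had groups that did not overlap, against 60.5% of all genes tested. The authors' deposited table gave log2 fold changes of -1.34 for FOXA2, -1.30 for NR5A2, 0.74 for CEBPA and -0.33 for FOXA3. Ranked by FPKM, the control order was NR1H4 (11.9 ± 0.819), FOXA2, FOXA1, RXRA, FOXA3, NR5A2 (2.41 ± 0.189), CEBPA and PROX1 (0.703 ± 0.10), and no neighbours in that order overlapped. With miR-885-5p it was NR1H4 (12.9 ± 0.629), FOXA1, RXRA, FOXA2, CEBPA, FOXA3, NR5A2 (1.09 ± 0.226) and PROX1 (0.781 ± 0.0532). There RXRA and FOXA2, CEBPA and FOXA3, and NR5A2 and PROX1 overlapped in their libraries. NR1H4 was thus the highest per length of the 8 in either group and PROX1 the lowest by mean.

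**Figure D4:**
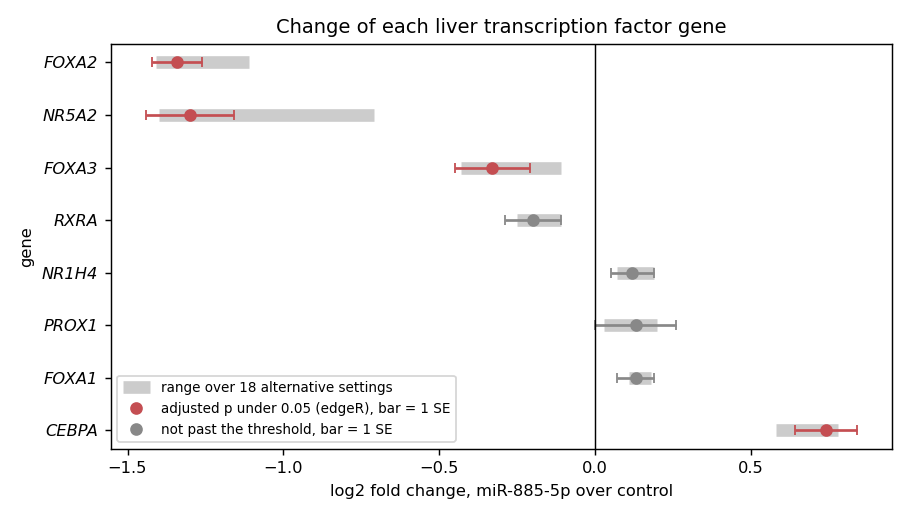
Points give the log2 fold change (miR-885-5p over control) of each gene with a bar of 1 SE, coloured by the edgeR call, and grey bands give the range over 18 alternative settings. No band crosses 0, also for genes that did not pass the threshold. The bands of FOXA2, NR5A2, FOXA3 and RXRA lie below 0, and those of CEBPA, FOXA1, NR1H4 and PROX1 above 0. The band of NR5A2 reaches -0.71.

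Other liver-enriched factors also went both ways. Of 24 listed genes 14 were tested, without HNF4A, ONECUT1 or NR0B2, and 2 rose and 3 fell (median log2 fold change 0.00). Among all genes 26.3% were higher and 26.5% lower. ONECUT2, a cut-homeobox factor of liver and biliary development, went from 61.5 ± 2.48 to 101 ± 2.36 CPM, up by 0.71 on the log2 scale (SE 0.04). NR2F2, an orphan receptor, rose by 0.39 and ATF5, a leucine zipper factor, fell by 0.20. HHEX, GATA6 and XBP1 had log2 fold changes of 0.08, 0.17 and -0.07 and did not pass. Under total-count scaling, on FPKM, or leaving out library 1 of control or library 2 of miR-885-5p, 3 genes of this list passed rather than 5.

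Most nuclear receptor genes that passed the threshold were higher, unlike NR5A2. Of 48 family genes, NR5A2, NR1H4 and RXRA included, 31 were tested; 15 rose, 4 fell and 12 did not pass, beside 26.3% higher and 26.5% lower among all genes (median log2 fold change 0.15, against -0.001 for all genes). NR5A2 had the lowest log2 fold change of the 31. Next came THRB, a thyroid hormone receptor, which was 31.7 ± 0.903 CPM in control and 19.0 ± 0.968 CPM with miR-885-5p, a fall of 0.74 (SE 0.06) in log2. The glucocorticoid receptor gene NR3C1 changed by -0.39 and the retinoic acid receptor gene RARA by -0.37. PPARA, the fatty acid sensor that drives hepatic fat oxidation, rose by 0.94 on the log2 scale (SE 0.07), its CPM going from 11.5 ± 0.579 to 22.2 ± 0.731. The orphan receptor gene NR2F6 rose by 0.97 (SE 0.08) and the vitamin D receptor gene VDR by 0.48. Of the receptors that sense oxysterols, NR1H2 rose by 0.33 and NR1H3 had a log2 fold change of -0.05 (SE 0.06).

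**Figure D5:**
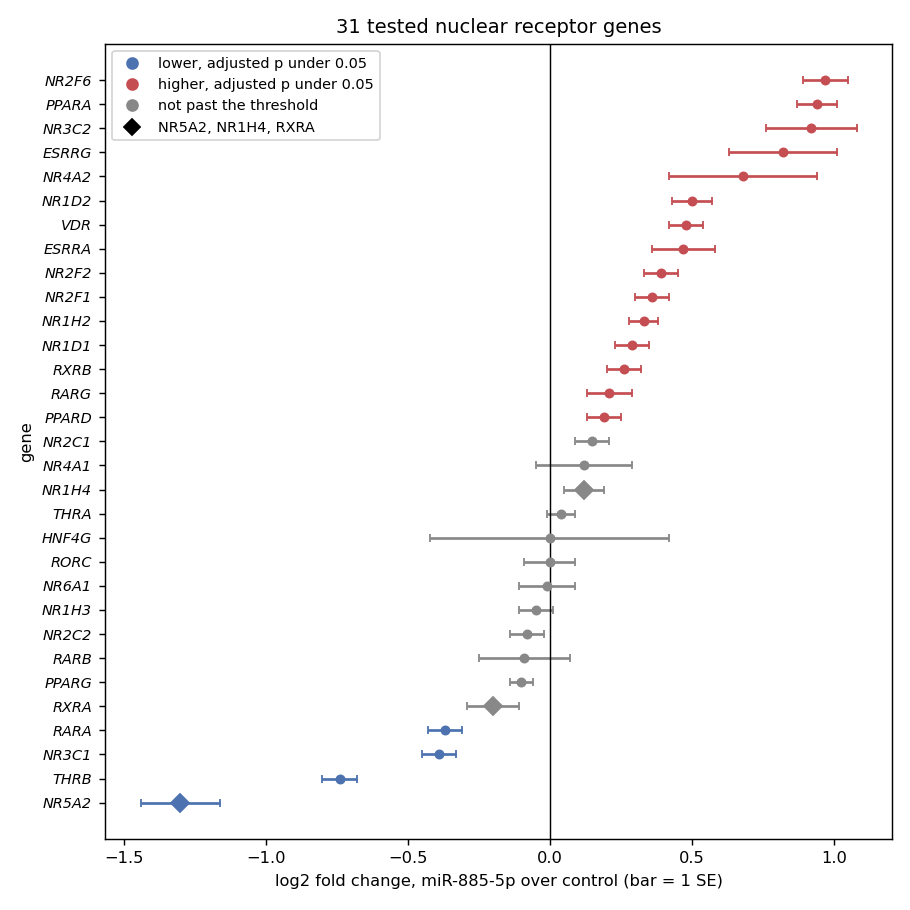
Log2 fold changes (miR-885-5p over control, bar of 1 SE) of the 31 tested nuclear receptor genes are sorted from lowest at the bottom to highest at the top, coloured by the edgeR call, with NR5A2, NR1H4 and RXRA as diamonds. NR5A2 stands at the bottom at -1.30, apart from THRB at -0.74, while NR1H4 and RXRA lie near 0 among genes that did not pass.

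Coregulators, which the receptors recruit to switch transcription on or off, moved by smaller amounts. Of 23 tested 6 rose and 8 fell, beside 26.3% higher and 26.5% lower among all genes, and none changed by 2-fold. The histone demethylase gene KDM1A fell by 0.47 in log2 (SE 0.03), from 171 to 123 CPM with an SD of 0.883 in both groups, and the arginine methyltransferase gene PRMT1 fell by 0.23. PPARGC1A, a coactivator of PPARα and other receptors in fasting liver, rose by 0.51 in log2 (SE 0.07), from 15.2 ± 0.391 to 21.7 ± 1.36 CPM, and NCOA4 rose by 0.35.

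Of 19 genes taken as NR5A2 targets 7 were tested, and CYP7A1, CYP8B1 and NR0B2 were not among them. None rose and 5 fell, against 26.5% of all genes lower. Among those that fell were FOXA3, the G1 cyclin genes CCND1 and CCNE1 at -0.15 (SE 0.03) and -0.25 (SE 0.09), and the kinase gene PLK3 at -0.20 (SE 0.07). The median log2 fold change of the 7 was -0.25. The count depended on the setting: 3 of the list passed under upper-quartile scaling, 2 under total-count scaling, 1 on the FPKM values, and 2 or 3 when any 1 library was left out. SCARB1, the high-density lipoprotein receptor gene, had a log2 fold change of 0.04 (SE 0.04).

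Of 22 genes taken as NR1H4 targets 10 were tested, of which 3 rose and 4 fell (median log2 fold change -0.04). The shares over all genes were 26.3% higher and 26.5% lower. The largest falls were those of the fibrinogen genes, whose product is the clot protein: FGB at -2.20 (SE 0.12), FGA at -1.64 (SE 0.20) and FGG at -1.44 (SE 0.15). The complement gene C3 rose by 0.42. The bile acid enzyme genes BAAT and SLC27A5 changed by -0.25 and 0.37, and the transporter gene ABCB4 by 0.66. In the list of bile acid synthesis and transport 2 of 13 rose and 5 fell, beside the same shares over all genes. ABCC2, the canalicular export pump, fell by 0.39 in log2 (SE 0.04), from 159 ± 4.15 to 122 ± 2.11 CPM, and CYP27A1, which starts the acidic pathway of bile acid synthesis, fell by 0.28. The uptake carrier gene SLCO1B3 fell by 0.22. No gene of this list changed by 2-fold.

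The liver label was checked against 30 hepatocyte products, of which 8 were tested, and ALB, APOA1, TTR and AFP were not among these. Besides the fibrinogen genes, TDO2, a tryptophan-degrading enzyme gene, rose by 2.37, CPS1, the entry enzyme of the urea cycle, by 0.48 and AMBP by 0.72, and IGFBP1 and SERPINA1 did not pass. Of biliary and progenitor markers 8 of 12 were tested, with 3 higher and 3 lower, beside 26.3% and 26.5% of all genes. They summed to 4300 to 4600 CPM in control and 3980 to 4050 CPM with miR-885-5p. SPP1, KRT19 and CD24 made up most of that sum. Of these markers SOX4, SOX9 and CD24 rose by 0.47, 0.35 and 0.16, and KRT19 and SPP1 fell by 0.25 and 0.32. Mesenchymal and stellate markers, 7 of 12 tested and 4 higher, summed to 859 to 948 CPM in control and 1430 to 1440 CPM with miR-885-5p, of which FN1 and RGS5 made up most; COL1A2, COL3A1 and ACTA2 were not among the genes tested. PDGFRB rose by 1.03 on the log2 scale and LUM by 0.70. VIM at -0.14 (SE 0.07), COL1A1 at 0.16 (SE 0.24) and LRAT at 0.58 (SE 0.25) did not pass. The 4 of 7 higher stand beside 26.3% of all genes. The part of these shifts in the changes of FOXA2, NR5A2 and CEBPA was not tested. Of leukocyte markers 3 of 10 were tested, with CSF1R at 0.44 and CD14 at -0.83, while CD68 at -0.03 (SE 0.06) did not pass. Of endothelial markers 2 of 8 were tested, with PECAM1 at 1.06 from 0.719 ± 0.256 CPM, while KDR at 0.07 (SE 0.24) did not pass. PTPRC, VWF and CDH5 were not among the genes tested.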

How the data were processed

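For each gene and library the deposited table gives a raw count (whole, not normalized) and an FPKM value, per the file headers. The authors also deposited each gene's log2 fold change and p-value without naming the test. Tools listed in the submitters' processing notes, without role or order, are DESeq2 1.38.3, HISAT2 2.0.4 and StringTie 2.2.1, with genome GRCh38. The sources used here do not name the counting tool, the strand setting or any filter on weak genes; the smallest total of a gene over the 6 libraries was 194 counts.

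Groups came from the sample titles. The quasi-likelihood test of edgeR 4.0.16 (R 4.3.3) was run on the counts after TMM scaling; filterByExpr removed 0 genes. P-values were adjusted across all 14034 genes by the Benjamini-Hochberg method, and 0.05 was the threshold. CPM are TMM-scaled. Positions, UTRs and sites came from GENCODE 29 on GRCh38, to which all 12420 Ensembl IDs matched; RefSeq gave the microRNA. The fit was tested on simulated counts. Replicate counts differed by more than sampling noise (chi-square per degree of freedom of 7.95 to 40.5 within groups).

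The 8 genes, the 12 further lists and the tests were chosen with earlier results of these data known. Besides the 8 genes, the text names from each list the 4 genes with the smallest p past the threshold, any called gene changed 2-fold, and the 5 genes nearest to NR5A2 over the libraries. Any other gene named was picked once its values had been seen. A few genes under the rule are not reported here. Alternatives were DESeq2 1.42.0, limma-voom (limma 3.58.1), other scalings and filters, a replicate block, a 1.5-fold test, limma on log2 FPKM, and leaving out each library.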

Additional observations from a re-analysis of the deposited data

How the results depend on the processing

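FOXA2 and NR5A2 passed the threshold under all 18 alternatives, with log2 fold changes from -1.41 to -1.11 and from -1.40 to -0.71. NR1H4, PROX1 and RXRA passed under none and kept their sign. Against a null of 1.5-fold, 903 genes passed (493 higher, 410 lower), 2 of the 8 genes among them; by construction this test asks for a larger change, and CEBPA (0.74) and FOXA3 (-0.33) did not pass. FOXA1 passed under total-count scaling (0.18). FOXA3 did not pass under upper-quartile scaling (-0.31), total-count scaling (-0.28), on log2 FPKM with pseudocounts of 1 and 0.1 (-0.11 and -0.14), or without 4 of the 6 libraries in turn (-0.43 to -0.26 over all 6); the cause was not tested. With the replicate number as a block FOXA3 was at -0.33 with adjusted p = 0.0596. Deviations of same-numbered libraries from their group means correlated at r from -0.212 to -0.121, and those of differently numbered libraries from -0.074 to 0.175. With 3 libraries per group these values cannot show whether the numbers pair libraries.

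Counts of list genes called that moved by over 1.5 times, other than under the 1.5-fold test, were 5 to 3 for liver-enriched factors, 4 to 2 for C/EBP genes without miR-885-5p library 3, 5 to between 1 and 3 for NR5A2 targets (2 with the block), 2 to 1 for leukocyte markers and 1 to 0 for endothelial markers. The 1.5-fold test left 2 liver-enriched factors, 2 other nuclear receptors, 1 NR5A2 target, 3 NR1H4 targets and 2 mesenchymal markers, and 0 in the C/EBP, coregulator, bile acid, biliary, leukocyte and endothelial lists. The median of the neighbours of FOXA1 was -0.02 with 10 genes on each side, and that of NR1H4 was 0.06 with 50. The lowest count of a gene in any library was 235 for NR5A2, 249 for CEBPA, 266 for PROX1 and 281 for FOXA3, and the part of depth in the calls was not tested.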

Other observations

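Over the 6 libraries, the named genes closest to NR5A2 were ranked by the Euclidean distance between log2 CPM values, each centred on its own mean, among 10697 genes with a mean of at least 5 CPM. The closest was CRABP2, which carries retinoic acid to its nuclear receptor, at a distance of 0.115. It was at 7.84, 8.31 and 7.27 CPM in control and 3.12, 2.52 and 3.54 CPM with miR-885-5p, and its library 2 of miR-885-5p was the lowest, as in NR5A2. Also among the closest were AL355916.2 at 0.219, the collagenase gene MMP1 at 0.224 and PSMC3IP, which acts in meiotic recombination, at 0.299. The log2 fold changes of these 4 genes ran from -1.38 to -1.16, and the difference between groups makes up most of the pattern compared. None of the 4 holds a 7mer-m8 or 8mer site in its longest 3′ UTR.

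Counts and FPKM of the same gene were set against each other. For FOXA3 the CPM per FPKM was 1.56 in miR-885-5p library 3 and 2.09 to 2.24 in the other 5 libraries, so that library is low by count and high by FPKM. For NR5A2 the same quotient ran from 4.92 to 5.63 in control and 4.40 to 5.05 with miR-885-5p, and for RXRA from 1.94 to 2.08 over all 6 libraries.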
